A study of Mus musculus with 6 samples.

Results

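Tip ECs are the endothelial cells (ECs) at the front of a vascular sprout, and in these data they are the 1428 cells that the deposited annotation assigns to the Tip subtype, of 8944 cells and of 5925 ECs in all. The other 2 EC subtypes of the annotation are 3335 Structural ECs, labelled only as ECs there, and 1162 Proliferative ECs, and 7 further cell types are not endothelial. The cells came from mouse retinas of the oxygen-induced retinopathy (OIR) model at postnatal day 14, in which pups are kept in high oxygen and then returned to room air, so that capillaries are first lost and then regrow as abnormal sprouts. There were 3 replicates labelled eNOS+/+ (C57BL/6J) and 3 labelled eNOS-/-, mice homozygous for a knockout allele of Nos3, the gene of endothelial nitric oxide synthase, in all cells and backcrossed to C57BL/6J. Each replicate pooled 3 to 5 retinas, and every suspension was enriched on beads against CD31, the protein of the endothelial gene Pecam1. All 6 replicates had OIR, and the sources used here do not say how many mice gave the retinas of a pool, so p-values measure the spread between these 6 pools.

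A tip cell is selected by vascular endothelial growth factor (VEGF), extends filopodia, secretes and remodels basement membrane, and signals through Dll4 to Notch on its neighbours, which proliferate behind it. Tip cells of the mouse retina are known for Angpt2, Apln, Esm1, Pdgfb and Cxcr4. The retinal sprouts of OIR form next to hypoxic tissue. The hypoxia-inducible factors switch on genes through a short DNA element, and ACGTG is a form of its core.

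There were 108, 145 and 337 Tip ECs in replicates 1 to 3 of eNOS+/+, and 269, 502 and 67 in those of eNOS-/-. Their summed UMIs (unique molecular identifiers, the molecules counted in Drop-seq) ranged from 142593 in eNOS-/- replicate 3 to 715593 in eNOS-/- replicate 2. All levels below are UMIs of a gene per 1000000 UMIs of such a sum (CPM), so that 1 UMI was worth 1.4 to 7.01 CPM. A Tip EC had a median of 1007 UMIs, against 491 in Structural ECs and 963.5 in Proliferative ECs. Tip ECs of different replicates shared 0 cell barcodes, and over all cell types 3 barcodes occurred in more than 1 replicate. The annotation gives eNOS+/+ replicates 1 and 2 the same original library name, yet their Tip sums had a chi-square of 3.53 per gene, where sampling noise alone gives about 1, within the range of 2.58 to 3.92 for replicates of the same genotype. Hemoglobin and other red cell genes summed to 14 to 400 CPM in Tip ECs, 35 to 22522 CPM in Structural ECs and 14 to 126 CPM in Proliferative ECs. Mural cell genes summed to 58 to 302 CPM in Tip ECs, with the highest value in eNOS-/- replicate 3, where they reached 4664 CPM in Structural ECs. The female-specific RNA Xist was at 0 CPM in eNOS+/+ replicate 3 and 1.4 CPM in eNOS-/- replicate 2, and at 49.1 to 195 CPM in the Tip ECs of the other 4 replicates.

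The 5 markers of the label were all higher in Tip ECs than in the other EC subtypes, in each of the 6 replicates. Most margins were wide, but in eNOS-/- replicate 3 Chst1 was only slightly above its level in Structural ECs. The subtypes were defined by clustering these same counts, so the differences between subtypes are descriptions and carry no test. Differences are given as log2(CPM + 10) of Tip ECs minus that of another subtype in the same replicate, with the SD over 6 replicates. Apln (chromosome X of GRCm38, 48025146 to 48034853) encodes apelin, a peptide secreted by sprouting vessels. Its level in Tip ECs was 968, 967 and 999 CPM in replicates 1 to 3 of eNOS+/+ and 1037, 736 and 975 CPM in those of eNOS-/-, the order used for all values below. It was at 60.7 to 254 CPM in Structural ECs and 185 to 269 CPM in Proliferative ECs, so that the ranges were far apart. The mean log2 difference was 2.71 ± 0.69 (SD, n = 6) against Structural and 2.03 ± 0.22 against Proliferative ECs.

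Angpt2 (chromosome 8, 18690263 to 18741562), a ligand of the receptor Tie2 that loosens vessel walls, was at 332, 492 and 221 CPM in eNOS+/+ and 451, 629 and 203 CPM in eNOS-/- Tip ECs. Structural ECs held 17.6 to 110 CPM of it and Proliferative ECs 0 to 79.4 CPM, and no replicate of either reached the lowest Tip value. Its log2 difference was 2.44 ± 0.86 against Structural and 3.44 ± 0.90 against Proliferative ECs (SD, n = 6). Adm (chromosome 7, 110627661 to 110629820), the vasodilator peptide adrenomedullin, had 254, 310 and 345 CPM in eNOS+/+ and 443, 467 and 330 CPM in eNOS-/- Tip ECs. In Structural ECs it was at 22.5 to 116 CPM and in Proliferative ECs at 35.9 to 128 CPM. Both high ends were in eNOS-/- replicate 3.

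Trp53i11 (chromosome 2, 93187548 to 93201759), a gene first found as induced by p53, was at 756, 572 and 930 CPM in eNOS+/+ and 969, 759 and 771 CPM in eNOS-/- Tip ECs. Its highest value in the other subtypes was 294 CPM. Chst1 (chromosome 2, 92599707 to 92615250), a sulfotransferase that adds sulfate to sugar chains, was at 350, 310 and 465 CPM in eNOS+/+ and 411, 338 and 210 CPM in eNOS-/- Tip ECs. The eNOS-/- replicate 3 was again the narrowest case, with 161 CPM of Chst1 in its Structural ECs. Summed over the 5 markers, all Tip ECs pooled had 2944 CPM, Structural ECs 505 CPM, Proliferative ECs 533 CPM, mural cells 535 CPM and rods 158 CPM. Angpt2 reached 527 CPM in the mural cells of 1 replicate, but each marker was higher in the Tip ECs of every replicate than in every other cell type with at least 10000 UMIs in that replicate.

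**Figure D1:**
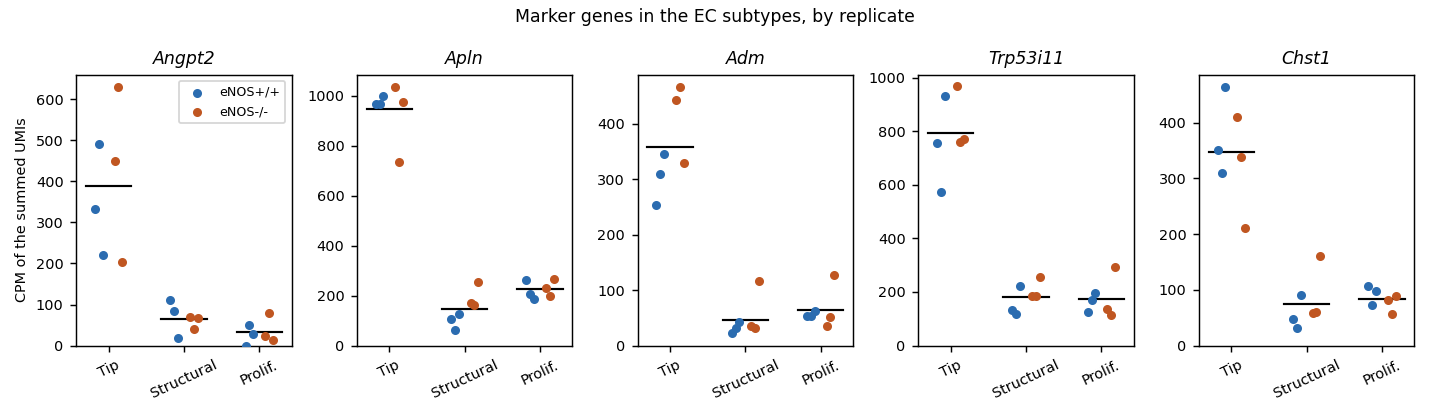
Level of each marker gene (CPM, linear axis from 0) in the 3 EC subtypes, 1 point for each replicate, blue for eNOS+/+ and orange for eNOS-/-, with a black line at the mean of the 6 replicates. For each marker the lowest Tip point lies above the highest Structural and Proliferative points.

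In single cells the markers were sparse. Among Tip ECs, 81.1% had a UMI of at least 1 of the 5 markers and 5.88% had all 5, while 270 cells (18.9%) had none. In Structural ECs 24.0% had any of them, in Proliferative ECs 36.6% and in rods, which should lack them, 4.91%. Rods had a median of 361 UMIs. With 500 UMIs drawn from each cell, a step that left out 337 Tip ECs, 1688 Structural ECs, 355 Proliferative ECs and 1087 rods, the shares with any marker were 68.7%, 17.0%, 20.7% and 5.46% in this order. The most often detected marker at equal depth was Trp53i11, in 32.7% of Tip ECs against 7.71% of Structural ECs, 6.94% of Proliferative ECs and 1.43% of rods. Apln followed with 31.8% of Tip ECs against 5.59%, 8.18% and 3.09%.

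The Tip ECs without a marker UMI also held the other genes of the subtype. This is a description only, since the label and the choice of those genes drew on the counts of the same cells. Tip ECs without a marker UMI were shallow, with a median of 452 UMIs against 2243 UMIs in Tip ECs with 3 to 5 markers. Over the 84 other genes that were higher in Tip ECs by the rule given next, they held 21602 CPM (15374 to 24785 CPM by replicate), and Tip ECs with 3 to 5 markers held 26959 CPM (24011 to 30075 CPM). Structural ECs without a marker UMI had 8150 CPM of the same genes. The 77 Structural ECs with 3 to 5 markers had 16450 CPM (11806 to 18084 CPM), and they were deep cells with a median of 5290 UMIs.

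To list the wider program, a gene was counted as higher in Tip ECs if it was above both other subtypes in 6 of 6 replicates with a mean log2 difference of at least 1 against each, and as lower by the mirror of this. Of 7673 genes with at least 20 CPM in a subtype, 89 were higher (1.16%) and 76 lower (0.99%). Without a limit on size, 356 genes were higher in 6 of 6 replicates against both (4.64%) and 345 lower (4.5%). The lists of genes below are read against these shares. The 89 genes together made up 24573 to 29856 CPM of a Tip sum, against 7888 to 12123 CPM in Structural and 7798 to 10794 CPM in Proliferative ECs.

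Among the 25 leading genes, Kcne3 (chromosome 7, 100176502 to 100184869), an accessory subunit of voltage-gated potassium channels, had the largest margin over its nearest subtype. It was at 323, 331 and 322 CPM in eNOS+/+ and 195, 294 and 260 CPM in eNOS-/- Tip ECs. Structural ECs had 25.3 to 60.7 CPM and Proliferative ECs 16.5 to 63.1 CPM, which gave log2 differences of 2.48 ± 0.32 and 2.65 ± 0.33 (SD, n = 6). Kcnj2, the inward rectifier potassium channel, had log2 differences of 1.41 ± 0.63 and 1.94 ± 0.40, and Piezo2, a channel opened by mechanical force, 1.55 ± 0.36 and 1.49 ± 0.49. The receptor tyrosine kinase Kit was at 87.6 to 191 CPM in Tip ECs, 12.1 to 41.1 CPM in Structural ECs and 24.2 to 76.7 CPM in Proliferative ECs. Sirpa, a receptor of CD47, had log2 differences of 2.09 ± 0.50 and 1.73 ± 0.72.

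Receptor and ligand of 1 chemokine pair went in opposite directions. Cxcr4, the receptor of Cxcl12, was at 286, 262 and 280 CPM in eNOS+/+ and 369, 430 and 147 CPM in eNOS-/- Tip ECs, against 16.2 to 120 CPM in Structural and 46.4 to 76.7 CPM in Proliferative ECs. Cxcl12 was at 23.0, 64.1 and 61.0 CPM in eNOS+/+ and 29.9, 55.9 and 21 CPM in eNOS-/- Tip ECs, against 222 to 557 CPM and 102 to 389 CPM. Its log2 difference was -2.93 ± 0.73 against Structural and -2.17 ± 0.84 against Proliferative ECs (SD, n = 6). Ackr3, the scavenger receptor of the same chemokine, was higher in Tip ECs, at 37.4 to 84.2 CPM against at most 26.2 CPM in the others, though mural cells (76.4 CPM) and Optc+ cells (101 CPM) had more of it pooled than Tip ECs (48.2 CPM). At 500 UMIs a cell, 1.65% of Tip ECs had a Cxcl12 UMI, below the 1.90% of rods.

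The remaining leading genes included Prrg3, a membrane protein with a vitamin K-dependent domain, Ankrd37, the lectin-like receptor Clec1a, the lipocalin Apod, the GTPase regulator Arhgap18, Pmaip1, which promotes cell death, Pmepa1, a TGF-beta target, Fam129a, the tetraspanin Cd82, the protocadherin Pcdh17, Fam102b, the laminin chain Lamb1 and the protease Prss23. Their mean log2 differences ranged from 1.34 for Lamb1 against Proliferative ECs and Prss23 against Structural ECs to 2.37 for Prrg3 against Proliferative ECs.

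**Figure D2:**
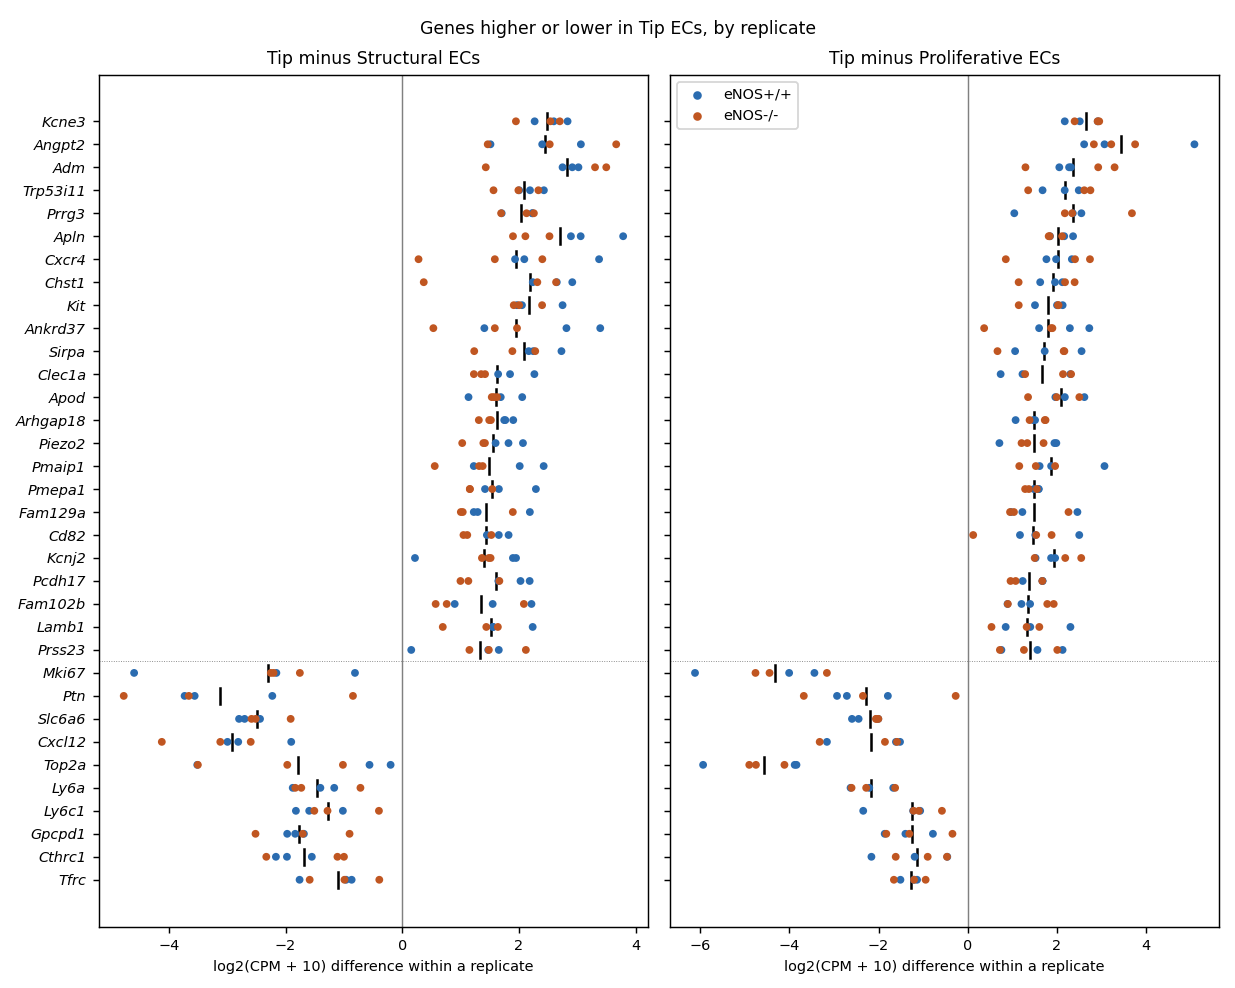
Difference in log2(CPM + 10) between Tip ECs and Structural ECs (left) or Proliferative ECs (right) within each replicate, for 24 of the 25 leading higher genes (top) and the 10 leading lower genes (below the dotted line), with blue points for eNOS+/+, orange points for eNOS-/- and a bar at the mean of the 6 replicates. All points of the upper genes lie right of 0 and all points of the lower genes left of it, by the rule that chose them, and Kcnj2, Prss23 and Cd82 have single points close to 0.

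Most leading genes were highest in Tip ECs of all 10 annotated cell types. By pooled CPM this held for 68 of the 89 genes and for 22 of the 25 leading ones. Fam129a was higher in Optc+ cells (726 CPM against 192 CPM in Tip ECs), Sirpa in immune cells (215 against 159 CPM) and Fam102b in immune cells (119 CPM, from 20 UMIs, against 102 CPM). Mural cells exceeded Tip ECs for 7 of the 89 genes. Mcam, a cell adhesion molecule of pericytes as well as ECs, was at 891 CPM in mural cells and 749 CPM in Tip ECs, and Mmp14, a membrane-bound matrix protease, at 283 and 213 CPM. Defining genes of other cell types were measured as well. Rod markers summed to 419 to 671 CPM, against 452 to 1221 CPM in Structural ECs, immune markers to 42 to 92 CPM against 145 to 717 CPM, and B cell markers to 91 to 189 CPM against 194 to 576 CPM, with Pdgfrb, Gfap, Cd79a and Cd79b at 0 in Tip ECs. Proliferative ECs had no more rod, immune, B cell or mural markers than Tip ECs on average. Mean sums were 519 against 543 CPM for rod, 54.2 against 73.8 CPM for immune, 94.4 against 124 CPM for B cell and 75.1 against 121 CPM for mural markers. Other lists were higher in Proliferative than in Tip ECs. Muller cell and astrocyte markers had means of 1108 against 685 CPM, neuron markers 86.5 against 43.6 CPM and pigment epithelium markers 3.94 against 3.23 CPM. The Muller cell and astrocyte list includes Apoe, Clu, Dbi and Spc25, and whether ECs themselves express its members was not tested. The part of such RNA in the differences between subtypes was not tested.

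**Figure D3:**
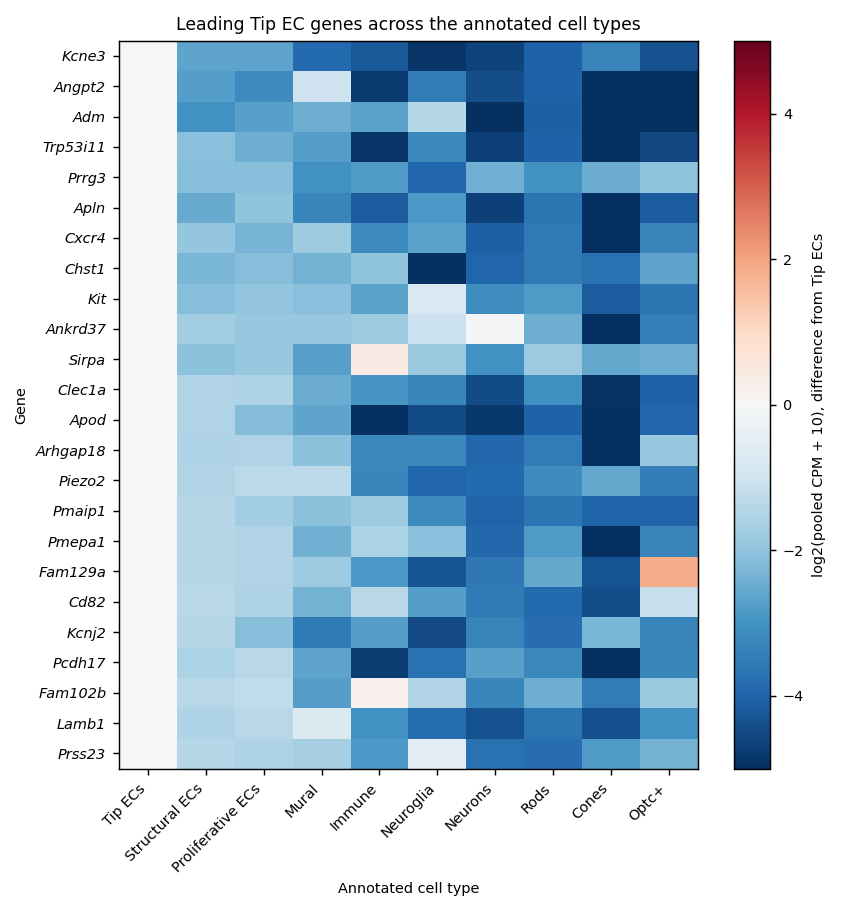
Difference of each annotated cell type from Tip ECs in log2(pooled CPM + 10), from blue (lower than in Tip ECs) through white to red (higher), for 24 of the 25 leading genes in rows and the 10 cell types in columns. Fam129a in Optc+ cells and Sirpa and Fam102b in immune cells are the 3 red fields, and Ankrd37 is about as high in neurons as in Tip ECs.

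Sequence of the promoters was examined for the 25 leading genes, since they are higher together and Adm and Ankrd37 among them are known targets of the hypoxia-inducible factors. RefSeq promoters of GRCm38.p6, from 250 bases before to 50 bases after a start site, were at hand for 17 of the 25 genes (29 promoters), and Angpt2 was not among them. The core ACGTG, read on either strand, was in 5 of these 29 promoters (17.2%), of 4 genes, and in 19.6% of all 32851 promoters. The AP-1 letters TGANTCA were in 4 of 29 (13.8%), against 7.81% of all promoters, but 2 of the 4 were overlapping windows of Prss23. Neither count sets the leading genes apart, and the windows of Adm, Apln, Chst1 and Trp53i11 held no ACGTG. Other forms of the hypoxia core were not counted. The promoters of Ankrd37 (chr8:45999801-46000100, minus strand), Kcne3 (chr7:100176420-100176719, plus strand) and Kcnj2 (chr11:111065914-111066213, plus strand) are shown as examples that hold the core, with each match on either strand in capitals. In Ankrd37 the matches begin 241 and 6 bases before the start site, in Kcne3 140 bases before it, and in Kcnj2 the palindrome CACGTG is a match on each strand.
Ankrd37: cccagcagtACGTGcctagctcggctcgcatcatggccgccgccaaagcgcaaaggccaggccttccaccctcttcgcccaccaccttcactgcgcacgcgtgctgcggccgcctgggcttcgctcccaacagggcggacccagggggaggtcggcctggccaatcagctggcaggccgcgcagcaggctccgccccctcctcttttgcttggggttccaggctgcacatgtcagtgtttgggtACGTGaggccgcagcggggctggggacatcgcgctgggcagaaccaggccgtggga
Kcne3: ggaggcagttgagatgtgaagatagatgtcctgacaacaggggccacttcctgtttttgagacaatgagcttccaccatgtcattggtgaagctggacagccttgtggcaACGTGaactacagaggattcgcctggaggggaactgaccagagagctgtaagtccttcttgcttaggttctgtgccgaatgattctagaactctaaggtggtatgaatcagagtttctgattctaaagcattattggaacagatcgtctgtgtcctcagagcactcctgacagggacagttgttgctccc
Kcnj2: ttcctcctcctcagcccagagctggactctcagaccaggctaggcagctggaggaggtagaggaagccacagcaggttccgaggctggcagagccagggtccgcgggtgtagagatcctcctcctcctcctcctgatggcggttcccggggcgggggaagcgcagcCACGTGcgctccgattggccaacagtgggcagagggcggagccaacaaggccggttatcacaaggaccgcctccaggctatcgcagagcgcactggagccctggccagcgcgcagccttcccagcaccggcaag

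The genes a tip cell is known for were mostly higher, though not all were particular to the Tip label. Of 29 further tip cell genes with at least 20 CPM, 16 were higher in 6 of 6 replicates against both other subtypes and none was lower. Of the 16, 7 passed the limit of 1 on the log2 scale. This list, like those below, was chosen with earlier results of these data known, so its count is a description. Kcne3, Cxcr4, Arhgap18 and Lamb1 are in it and are also among the leading genes above. The median log2 difference of the list was 0.70 against Structural and 0.95 against Proliferative ECs, where the medians over all 7673 genes were -0.08 and -0.03. Pdgfb, which recruits pericytes, was at 275 to 560 CPM in Tip ECs, 107 to 254 CPM in Structural ECs and 136 to 252 CPM in Proliferative ECs. Dll4, the Notch ligand of tip cells, was at 58.8 to 129 CPM, 47.4 to 70.7 CPM and 38.4 to 55.3 CPM, with log2 differences of 0.55 ± 0.49 and 0.95 ± 0.55 (SD, n = 6). Esm1, a secreted proteoglycan of tip cells, was higher than in Structural ECs in 5 of 6 replicates, with a mean difference of 1.78 ± 1.09. The netrin receptor Unc5b was higher than in Structural ECs in 4 of 6 replicates, with a mean difference of -0.02 ± 0.90.

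Of 7 VEGF ligands and receptors, 2 were higher in 6 of 6 replicates against both subtypes and 1 was lower. Kdr, the main VEGF receptor, was at 701 to 1195 CPM in Tip ECs, 691 to 919 CPM in Structural ECs and 742 to 1039 CPM in Proliferative ECs, with overlapping ranges. The co-receptors Nrp1 and Nrp2 were higher in 6 of 6 replicates against both subtypes, with log2 differences of 0.97 and 0.66 against Structural ECs. Vegfc, the lymphatic growth factor, was nearly absent from Tip ECs (0 to 4.21 CPM) and at 20.0 to 48.6 CPM in Structural ECs. Tek, which encodes the receptor Tie2 for Angpt2, was lower in 6 of 6 replicates, by a mean of -1.05 ± 0.29 against Structural and -0.96 ± 0.24 against Proliferative ECs. The apelin receptor gene Aplnr was at 252 to 379 CPM in Tip ECs, 127 to 351 CPM in Structural ECs and 274 to 499 CPM in Proliferative ECs. Calcrl, the receptor of adrenomedullin, was lower than in Structural ECs in 5 of 6 replicates, with a mean of -0.77 ± 0.88. The ligands Angpt2, Apln and Adm were thus high in Tip ECs while none of these 3 receptor genes was higher than both other subtypes in all replicates.

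Laminin chains and several other basement membrane genes were higher in Tip ECs. Of 21 matrix genes with at least 20 CPM, 10 were higher in 6 of 6 replicates against both subtypes, 6 of them past the limit of 1, and 1 was lower. The laminin chains Lama4 (617 to 1712 CPM against 319 to 739 CPM in Structural ECs), Lamb1 (617 to 1185 against 219 to 430 CPM) and Lamc1 (358 to 668 against 160 to 233 CPM), which assemble into 1 endothelial laminin, were all higher. Col4a2, a chain of basement membrane collagen, had smaller log2 differences of 0.53 ± 0.17 and 0.66 ± 0.10, and its partner Col4a1 was higher than in Structural ECs in 5 of 6 replicates. Sparcl1, a secreted matrix glycoprotein, was at 3082 to 5422 CPM in Tip ECs and 1296 to 2633 CPM in Structural ECs. Col18a1, whose product is the source of endostatin, was the lower member, at 126 to 449 CPM against 411 to 970 CPM in Structural ECs. Among 19 genes of collagen processing and matrix proteases, 4 were higher in all replicates against both, Serpinh1, Mmp14 and Plaur among them, and none was lower.

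About as many genes of filopodia and actin were higher, by smaller amounts. Of 29 with at least 20 CPM, 10 were higher in 6 of 6 replicates against both subtypes and 1 lower, yet only Cdc42ep3 passed the limit of 1 upwards. Cdc42ep3, an effector of the filopodia GTPase Cdc42, was at 407 to 477 CPM in Tip ECs, 113 to 208 CPM in Structural ECs and 139 to 193 CPM in Proliferative ECs. Myo10, a myosin that moves to filopodial tips, had log2 differences of 0.79 ± 0.37 and 0.98 ± 0.30. Actb, cytoplasmic actin, differed by 0.53 ± 0.05 from Structural ECs (SD, n = 6), the smallest spread among these 10 genes. Diaph3, a formin also used in cell division, was the lower member. Cdc42 itself was at 656 to 943 CPM in Tip ECs and 542 to 864 CPM in Structural ECs, with a log2 difference of 0.10 ± 0.19. Of 22 polarity genes, which were the question of the study, 2 were higher in 6 of 6 replicates against both (Mpp5 and Cav1) and 1 lower (Llgl1), and the medians were 0.01 and -0.05.

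Hypoxia and glycolysis genes leaned higher by median, with members in both directions. Median log2 differences were 0.32 and 0.41 for hypoxia and 0.35 and 0.41 for glycolysis genes, against Structural and Proliferative ECs in this order. The medians over all genes were -0.08 and -0.03. The summed hypoxia genes were higher than in Proliferative ECs but not than in Structural ECs. The means were 3000 CPM in Tip, 3083 CPM in Structural and 2273 CPM in Proliferative ECs. Slc2a1, with levels given below, is a large part of the Structural sum. Of 17 hypoxia factors and targets, Adm, Ankrd37, Pfkfb3 and Pdk1 were higher in 6 of 6 replicates against both subtypes, and Ddit4 and Slc2a1 were lower. Ankrd37 was at 410, 459 and 381 CPM in eNOS+/+ and 285, 380 and 351 CPM in eNOS-/- Tip ECs, against 29.9 to 239 CPM in Structural ECs. Slc2a1, the main glucose transporter of the blood-retina barrier, was at 521 to 870 CPM in Tip ECs, 1020 to 1504 CPM in Structural ECs and 730 to 995 CPM in Proliferative ECs. Of 15 glycolysis genes, Gpi1, Pfkp, Pfkfb3, Aldoa and Pkm were higher in all replicates against both, none past the limit of 1, and Slc2a1 and Ldhb were lower.

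Barrier genes leaned lower in Tip ECs as a list, though few single genes were lower throughout. Their sum was below that of both other subtypes in every replicate. The means were 10077 CPM in Tip, 12834 CPM in Structural and 11694 CPM in Proliferative ECs. The gap was narrow in eNOS-/- replicate 3, at 13009 CPM in Tip and 13110 CPM in Structural ECs. Of 24 barrier and transport genes, 3 were higher in 6 of 6 replicates against both subtypes (Slc7a5, Cav1 and Cavin1) and 2 lower (Slc2a1 and Tfrc), with medians of -0.57 against Structural and -0.24 against Proliferative ECs. The tight junction gene Cldn5 was at 994 to 2391 CPM in Tip ECs and 1036 to 2382 CPM in Structural ECs, and the lipid transporter Mfsd2a at 207 to 358 CPM and 213 to 404 CPM. Of 14 Norrin and Wnt genes, the Norrin receptor Fzd4 was higher (68.5 to 133 CPM against 49.9 to 84.4 CPM in Structural ECs) and the Wnt feedback inhibitor Nkd1 lower (2.79 to 18.4 against 35.8 to 84.8 CPM). Id2 and Id3, targets of BMP signals, were lower in all replicates against both, Id3 at 241 to 594 CPM in Tip ECs and 806 to 1065 CPM in Structural ECs. Of 16 guidance genes, 5 were higher (Robo4, Plxnd1, Plxna2, Nrp1 and Nrp2) and 3 lower (Ephb4, Epha4 and Flrt2). Of 10 Notch genes, Dll4, Notch4 and Hes1 were higher and none lower, and none passed the limit of 1.

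Arterial and venous genes followed no single identity. Gja4, a connexin of arteries, was at 5.98 to 29.3 CPM in Tip ECs, 109 to 220 CPM in Structural ECs and 25.6 to 141 CPM in Proliferative ECs. Among 14 arterial genes, Dll4, Cxcr4 and Nrp1 were higher and Gja4 and Vegfc lower in all replicates against both. Vwf, the clotting factor of large and venous vessels, was higher, at 435 to 652 CPM against 162 to 277 CPM in Structural ECs and 67.6 to 207 CPM in Proliferative ECs. Cdh5, the endothelial cadherin, was at 516 to 814 CPM in Tip ECs and 471 to 848 CPM in Structural ECs. Pecam1, whose protein was used for the bead enrichment, was higher by 0.63 ± 0.17 and 0.61 ± 0.18 on the log2 scale (SD, n = 6). Of 26 endothelial transcription factors, Erg, Ets1, Meox1 and Zeb1 were higher in 6 of 6 replicates against both subtypes and none lower, with medians of 0.10 and 0.18.

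Cell division genes were lowest in Tip ECs. The 25 genes of mitosis summed to 244 to 729 CPM in Tip ECs, 916 to 2650 CPM in Structural ECs and 3607 to 8701 CPM in Proliferative ECs, so Tip ECs were below both in all replicates. Of these genes 13 were lower in 6 of 6 replicates against both and none higher. Mki67, a mark of cycling cells, was at 0, 26.7 and 29.5 CPM in eNOS+/+ and 21.9, 22.4 and 14.0 CPM in eNOS-/- Tip ECs, against 59.2 to 232 CPM in Structural ECs. At 500 UMIs a cell, a Mki67 UMI was in 0.55% of Tip ECs, 4.01% of Structural ECs, 25.4% of Proliferative ECs and 1.66% of rods, so the Tip share was at the level of background. Of 21 DNA replication genes, 8 were lower and none higher, among them Rrm2, a subunit of ribonucleotide reductase, at 0 to 5.59 CPM. Cdkn1a, the cell cycle inhibitor p21, was higher in Tip ECs, at 666 to 1017 CPM against 247 to 434 CPM in Structural and 224 to 703 CPM in Proliferative ECs, and so was the G1 cyclin Ccnd1, at 227 to 374 CPM against 97.2 to 238 CPM and 118 to 264 CPM.

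Beside Cxcl12, Mki67 and Top2a, the 10 leading lower genes were not of the cell cycle. Slc6a6, the taurine transporter, was at 111, 112 and 139 CPM in eNOS+/+ and 150, 86.6 and 112 CPM in eNOS-/- Tip ECs, against 570 to 1025 CPM in Structural and 389 to 729 CPM in Proliferative ECs. Ptn, the growth factor pleiotrophin, was at 3.99 to 57.3 CPM in Tip ECs, 111 to 456 CPM in Structural and 71.0 to 169 CPM in Proliferative ECs. Tfrc, the transferrin receptor, was at 69.4 to 168 CPM, 204 to 440 CPM and 216 to 461 CPM. The others were Ly6a and Ly6c1, surface antigens of a family of similar genes between which reads may be shared, the phosphodiesterase Gpcpd1 and the secreted collagen regulator Cthrc1, with mean log2 differences between -1.13 and -2.17.

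**Figure D4:**
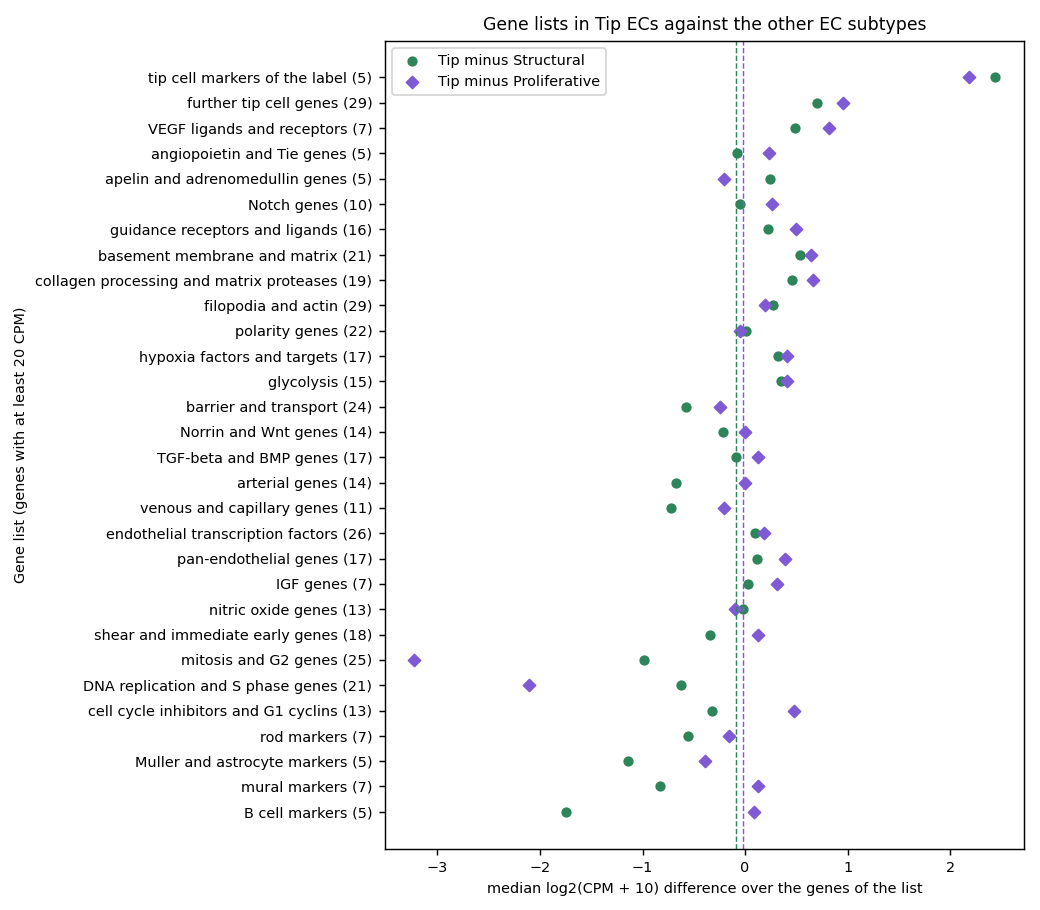
Median over the genes of each list (with the number of genes in brackets) of the mean log2(CPM + 10) difference of Tip ECs from Structural ECs (green circles) and from Proliferative ECs (purple diamonds), with dashed lines at the medians over all 7673 genes, -0.08 and -0.03. The markers and further tip cell genes lie farthest to the right, and the mitosis genes farthest to the left against Proliferative ECs.

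Between genotypes, few differences were detected in Tip ECs, which at 3 replicates each does not show that the differences were small. Nos3 does not check the labels, since it was at 18.4, 21.4 and 23.1 CPM in the eNOS+/+ and 12, 12.6 and 21 CPM in the eNOS-/- Tip sums, and tags from the 3' end need not cover the altered part of the gene. Tip ECs made up 21.6% (95% Wilson interval 18.3 to 25.5), 27.4% (23.7 to 31.3) and 30.9% (28.2 to 33.7) of the ECs of the eNOS+/+ replicates. In the eNOS-/- replicates the shares were 21.5% (19.3 to 23.9), 22.2% (20.5 to 23.9) and 23.3% (18.8 to 28.5), and these intervals cover counting error only. The mean was 26.6% ± 4.65 (SD, n = 3) against 22.3% ± 0.883 (SD, n = 3), a difference of -4.31 percentage points with p = 0.3 in a two-sided exact permutation test, where 0.1 is the smallest p that 3 against 3 allows.

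Of 5510 genes tested between genotypes in Tip ECs with edgeR's quasi-likelihood test, 1 had a Benjamini-Hochberg adjusted p under 0.05 (0.0181%), and 273 had an unadjusted p under 0.05 (4.95%). The called gene was AI506816, a noncoding transcript (chromosome 5, 23698296 to 23712667). It was at 115, 160 and 69.4 CPM in eNOS+/+ and 7.98, 14.0 and 7.01 CPM in eNOS-/- Tip ECs, a log2 fold change of -3.30 (SE 0.46, adjusted p = 0.000771, edgeR). The same transcript was lower in Structural ECs (-2.81, adjusted p = 0.0344) and Proliferative ECs (-2.48, adjusted p = 0.00597), and its difference did not differ detectably between subtypes (interaction adjusted p = 0.998 and 1). It lies 652 kb from the start of Nos3 (24364810). Of 18 tested genes that start within 5 Mb of Nos3, it was the 1 that was called, and 2 had an unadjusted p under 0.05.

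Among genes that missed the threshold, Apod was the only leading Tip gene with one of the 5 smallest p in a direction. It was at 618, 588 and 865 CPM in eNOS+/+ and 1428, 1504 and 1557 CPM in eNOS-/- Tip ECs, without overlap, for a log2 fold change of 1.10 (SE 0.24, adjusted p = 0.126, edgeR). DESeq2 called it, with an adjusted p of 0.0099, as 1 of its 2 calls. Snx4, a sorting nexin of endosomes (chromosome 16, 33251442 to 33300269), was at 83.0, 85.5 and 77.8 CPM in eNOS+/+ and 207, 187 and 238 CPM in eNOS-/- Tip ECs (log2 fold change 1.35, SE 0.28, adjusted p = 0.115, edgeR). In Structural ECs its log2 fold change was 0.29 and in Proliferative ECs 0.63, and neither interaction passed the adjusted threshold. Selenop, a selenium carrier, was at 27.7, 69.4 and 37.9 CPM in eNOS+/+ and 172, 307 and 28.1 CPM in eNOS-/- Tip ECs, so that eNOS-/- replicate 3 lay among the eNOS+/+ values. Slc16a4 and Eif1ax, with log2 fold changes of 1.17 and 1.08, completed the 5 genes of smallest p that were higher in eNOS-/- Tip ECs.

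On the lower side, Phlda1, an early response gene, was at 138, 96.2 and 114 CPM in eNOS+/+ and 29.9, 26.6 and 56.1 CPM in eNOS-/- Tip ECs (log2 fold change -1.82, SE 0.36, adjusted p = 0.0852, edgeR). The others were Gm47283, a gene model on chromosome Y near copies of similar sequence, the phosphatase subunit Ppp4c (-1.34) and mt-Atp8 (-1.22), which overlaps mt-Atp6 and shares reads with it. Of 17 tested mitochondrially encoded genes, 9 had an unadjusted p under 0.05 and all 9 were lower in eNOS-/- Tip ECs, while 0 were called. These genes summed to 22425, 28969 and 24055 CPM in eNOS+/+ and 20957, 26096 and 13093 CPM in eNOS-/- Tip ECs. The sums overlapped between genotypes, and eNOS-/- replicate 3 was the lowest.

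The number of calls depended on which replicates were included. Of all Tip sums, that of eNOS-/- replicate 3, with 67 Tip ECs, had the highest red cell and mural sums. Without this replicate, 25 of 7076 tested genes were called, against 1 of 5510 with all replicates. Of the 25, 22 were lower and 3 higher in eNOS-/- Tip ECs (Selenop, Snx4 and Zcchc8, the last named after its values were seen). Without eNOS+/+ replicate 2 none was called, and AI506816 had an adjusted p of 0.0573 (edgeR). Without eNOS+/+ replicate 1 there were 5 calls.

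By edgeR, 0 genes of the Tip program were called between genotypes, where 1 of all 5510 genes was, and DESeq2 called Apod. Of the 89 higher genes 87 could be tested, and 5 (5.75%) had an unadjusted p under 0.05, near the 4.95% of all genes. Among these were Apod, higher, and Olfml2b, Ext1 and Pdgfb, lower, named after their values were seen. Their median log2 fold change was 0.00, with 44 of 87 above 0. Pdgfb was at 525, 508 and 560 CPM in eNOS+/+ and 335, 275 and 414 CPM in eNOS-/- Tip ECs, without overlap (log2 fold change -0.67, SE 0.25, adjusted p = 0.701, edgeR). Log2 fold changes of the 5 markers were -0.10 for Apln, 0.39 for Angpt2, 0.46 for Adm, 0.14 for Trp53i11 and -0.20 for Chst1, with SE of 0.24 to 0.32.

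Among the pathway lists no gene was called between genotypes in Tip ECs, where 1 of all 5510 tested genes (0.0181%) was called. Polarity genes had 13 members tested, of which 10 were higher in eNOS-/- Tip ECs with a median log2 fold change of 0.23, and none had an unadjusted p under 0.05. Glycolysis genes were higher in 13 of 14 tested members, with a median of 0.21, also with none at an unadjusted p under 0.05. The median over all 5510 genes was 0.00, with 2785 of them higher and 4.95% at an unadjusted p under 0.05. Of 16 tested hypoxia genes 12 were higher, with a median of 0.19, and Egln3, the oxygen-sensing prolyl hydroxylase, had a log2 fold change of 1.31 (SE 0.53, adjusted p = 0.796, edgeR). Of 25 tested filopodia and actin genes 10 were higher, with a median of -0.09 and none at an unadjusted p under 0.05. Of 23 tested barrier and transport genes 17 were higher, with a median of 0.17, and 4 had an unadjusted p under 0.05, the transporters Slco1c1 (0.70) and Abcb1a (0.88) higher and the transcription factor Foxf2 (-0.87) and Plvap lower. Plvap, a protein of leaky capillaries, had a log2 fold change of -1.57 (SE 0.47, adjusted p = 0.562, edgeR). Calcrl had 0.96 (SE 0.42, adjusted p = 0.904, edgeR).

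**Figure D5:**
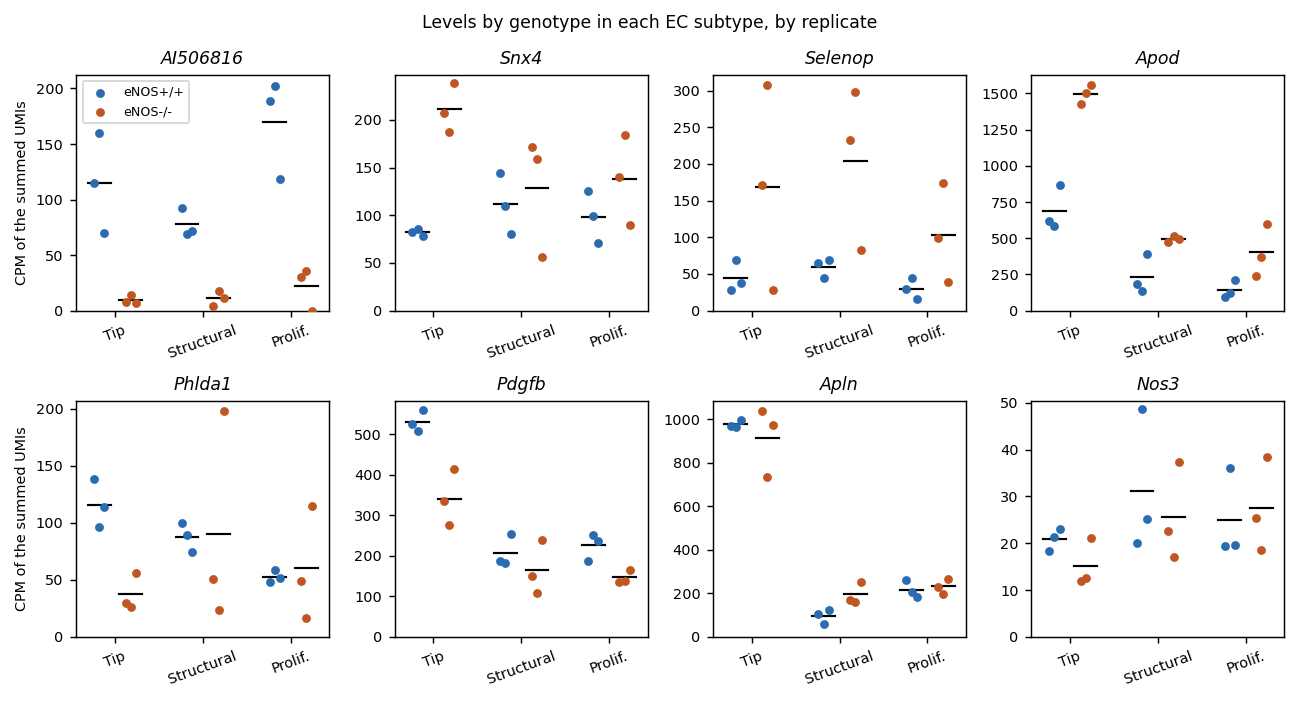
Levels (CPM, linear axis from 0) of 8 genes in the 3 EC subtypes, 1 point for each replicate, blue for eNOS+/+ and orange for eNOS-/-, with a black line at the mean of each 3. AI506816 is low in eNOS-/- replicates of all subtypes, Selenop has 1 low eNOS-/- replicate, and Nos3 overlaps between genotypes. Snx4, Apod, Phlda1 and Pdgfb do not overlap between genotypes in Tip ECs, though edgeR called none of them.

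Whether Tip ECs responded to the genotype differently from the other subtypes was tested by interaction terms over the 18 sums of 3 subtypes and 6 replicates. Of 7019 genes, 0 were called against Structural ECs (0%) and 0 against Proliferative ECs (0%) by edgeR, with 275 and 274 at an unadjusted p under 0.05, and DESeq2 also called 0 in both. The smallest p against Structural ECs belonged to Apln, a marker. It was at 107, 60.7 and 126 CPM in eNOS+/+ and 172, 163 and 254 CPM in eNOS-/- Structural ECs, without overlap, while the Tip values given above overlapped. The interaction was -0.92 on the log2 scale (SE 0.23, adjusted p = 0.988, edgeR). Rapgef6 and Lmbr1 followed, with interactions of -1.06 and 2.22. Against Proliferative ECs the smallest p were those of Dut, an enzyme of nucleotide metabolism that was at 0 to 37.4 CPM in Tip ECs, Brd9 and Scai, with interactions of -3.16, 1.2 and -2.53.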

How the data were processed

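Drop-seq libraries were made by the authors from CD31-enriched cells of OIR retinas at postnatal day 14, 3 replicates per genotype. Reads were aligned with kb-python to GRCm38, and cells with under 100 genes or over 10% mitochondrial reads and contaminant clusters were removed. The authors deposited raw UMI counts of 20822 genes in 8944 cells with a table of each cell's replicate and cell type, all cells being called singlets. The authors' notes also name Seurat, version 3.

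Counts were summed per replicate and cell type, and CPM were computed from the sums. Genotypes were compared with edgeR 4.0.16 (filterByExpr, TMM, quasi-likelihood test, Benjamini-Hochberg limit 0.05), and interactions in 1 fit over 18 sums with the sample as a block. DESeq2 1.42.0 was an alternative. R 4.3.3 and Python 3.11.15 were used, and the fits were tested on simulated data. Tip shares were compared between genotypes by an exact permutation test, two-sided.

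Named genes are the 5 markers, the 25 higher genes with at least 100 CPM in Tip ECs and the largest smaller difference, the 10 lower genes with at least 100 CPM in both other subtypes, called genes with the 5 smallest p per direction, the 3 smallest interaction p, and members of 36 gene lists. The markers, rules and lists were chosen with earlier results of these data known. Coordinates are from GENCODE M21. Cells were not regrouped and no gene set was tested. Some genes that meet these rules are not reported here. Depth of a Tip sum ranged from 142593 to 715593 UMIs.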

Additional observations from a re-analysis of the deposited data

Results flagged for a closer look

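Over the 35 leading genes, the 6 replicates' differences were screened for a single replicate far from the others by Dixon's test, which chance alone meets in about 1 of 20 groups, and 4 of 70 comparisons did so. In eNOS-/- replicate 3, the log2 difference of Tip minus Structural ECs was 1.43 for Adm, against 2.75 to 3.50 in the other replicates, and 0.37 for Chst1, against 2.24 to 2.92. In these Structural ECs mural genes summed to 4664 CPM, against 45 to 197 CPM in the other replicates, and the part of mural RNA in both values was not tested. In eNOS+/+ replicate 1, Kcnj2 differed by 0.22 between Tip and Structural ECs, against 1.37 to 1.95 in the others. In the same replicate Ly6c1 differed by -2.34 between Tip and Proliferative ECs, against -1.22 to -0.58.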

How the results depend on the processing

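The number of genes called between genotypes in Tip ECs was 1 and became 2 with DESeq2, with cells of at least 500 UMIs and with 1 cell per barcode family, 8 with no filter on low counts, and 0 to 25 with 1 replicate left out. RLE scaling, no mitochondrial genes, 1 fit over the 18 sums, and leaving out cells with 2 or more B cell genes (added after the data had been seen) each gave 1 call. Deviations of same-numbered replicates correlated at 0.12, -0.08 and 0.12, and those of unlike-numbered ones at -0.19 to 0.16. With 3 replicates per genotype, these values cannot exclude a pairing by number. The fit with the replicate number as a block gave 1 call. Interaction calls against Structural ECs were 5 of 19593 genes with no filter and 0 under the 11 other alternatives, and those against Proliferative ECs were 0 under all 12. The 89 higher and 76 lower genes became 34 and 7 with a pseudocount of 50 CPM and 262 and 203 with a difference of at least 0.5, by construction, and stayed within 81 to 122 and 63 to 101 under the 11 others. The share difference ranged from -6.80 to -1.32 percentage points (exact permutation p 0.1 to 0.9, and 0.25 within same-numbered pairs). Genotype log2 fold changes near 0 turned sign once each. With 1 replicate left out, that of Apln ranged from -0.20 to 0.045 (without eNOS-/- replicate 2), that of Trp53i11 from -0.032 (without eNOS+/+ replicate 2) to 0.36, and that of Chst1 from -0.40 to 0.022 (without eNOS+/+ replicate 3). The cause of these shifts was not tested. Depth limits low genes, as 1 UMI is up to 7.01 CPM.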

Other observations

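The IGF genes, which carry or bind insulin-like growth factors, varied widely between replicates of eNOS-/-. They summed to 9005, 7222 and 8885 CPM in eNOS+/+ and 4519, 4728 and 10884 CPM in eNOS-/- Tip ECs, so that eNOS-/- replicate 3 was the highest Tip sum. The spread was not particular to Tip ECs. In the eNOS-/- replicates the sums were 4238, 3423 and 9007 CPM in Structural and 3068, 3199 and 7878 CPM in Proliferative ECs. Of 6 tested members 0 were called by edgeR and 0 had an unadjusted p under 0.05. Against the other subtypes, 1 of 7 IGF genes, Igfbp3, was higher in 6 of 6 replicates in both comparisons.

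Among 13 nitric oxide genes, 3 were higher in Tip ECs in 6 of 6 replicates against both other subtypes, Nos2 and Cav1 among them, and none was lower. Of 18 shear and immediate early genes 1, Atf3, was higher in this way and 0 were lower. Of 17 pan-endothelial genes 6 were higher, among them Pecam1, Emcn and Cd34, and Tek was lower. Of 11 venous and capillary genes 4 were higher (Vwf, Rgcc, Emcn and Nrp2) and 2 lower (Ephb4 and Tek). Of 17 TGF-beta and BMP genes Tgfb1 and Smad1 were higher and Id2 and Id3 lower. Of 13 cell cycle inhibitors and G1 cyclins Cdkn1a, Cdkn2b and Ccnd1 were higher and none lower.

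Muller cell and astrocyte markers summed to 539 to 1024 CPM in Tip ECs and 852 to 1827 CPM in Structural ECs. Neuron markers summed to 14 to 127 CPM and 61 to 500 CPM, cone markers to 52 to 102 CPM and 42 to 131 CPM, and pigment epithelium markers to 0 to 8 CPM and 0 to 34 CPM.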
